A study of Macaca mulatta with 35 samples.

Results

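The transcripts described here are the 100 whose level varied least across cumulus cells, granulosa cells and oocytes of rhesus monkey antral follicles. They were chosen from 49537 transcript IDs by 3 steps. A transcript had to average at least 20 TPM (a level scaled to transcript length and to a fixed library total) over all 35 libraries, had to be above 0 in every library, and had to be none of 4 very abundant transcripts that the rule leaves out. Of the 2088 transcripts with that mean, 219 were at 0 in some library, and 1865 met all conditions on level. Among these, the 100 with the smallest standard deviation (SD) of log2(TPM + 1) over the 35 libraries were taken. The choice therefore rests on the TPM values themselves, and the spread, the small differences between cell types and the small differences between follicle sizes given for these transcripts are descriptions of what was chosen.

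The study compared the transcriptomes of follicle cells from small, medium and large antral follicles, the fluid-filled follicles of the adult ovary. Ovaries came from adult female rhesus macaques at necropsy, and cells were taken from individual follicles, per the labels' protocols. There were 9 groups without any treatment: cumulus cells from small (3 libraries), medium (4) and large (4) follicles, granulosa cells from small, medium and large follicles (4 each), and oocytes from small, medium and large follicles (4 each). Nothing in the labels ties a library to an animal or a follicle. The p-values therefore measure the spread among the libraries at hand, part of which may be technical. Some libraries may share an animal, while the main tests treat all libraries as independent.

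Cumulus cells are the somatic cells that surround the oocyte and exchange metabolites and signals with it through cell contacts. Granulosa cells line the follicle wall, respond to gonadotropins and make steroid hormones, while the oocyte stores maternal transcripts for meiosis and the early embryo. Transcripts whose level is alike in such different cells are often called housekeeping or reference transcripts, typically those of ribosomes, the cytoskeleton, protein turnover or energy metabolism, and they are used to scale measurements of other transcripts. The deposited tables name each transcript only by an Ensembl ID. None of the 49537 IDs matched the gene tables used here (0 matches in either), so no gene, function or sequence is given for any of them, and the labelled cell types could not be checked against their markers. Whether some of the 100 are transcripts of the same gene is likewise unknown.

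Libraries held 20780476 to 52350387 estimated counts, with a median of 28839787. RNA was amplified before sequencing, so counts are not independent molecules, and the counting errors given cover counting alone. A set of 478 transcripts far higher in oocytes, which includes 0 of the 100, held 2.83% to 6.99% of the counts of oocyte libraries. It held more than 0.1% in 6 libraries of somatic cells (cumulus small 1, cumulus small 2, cumulus medium 2, cumulus large 3, granulosa medium 4 and granulosa large 1) and at most 0.0503% in the others. The 4 transcripts left out by the rule held a median of 45.3% of all TPM, from 20.4% in library 2 of oocytes from large follicles to 68.9% in library 2 of oocytes from medium follicles. Since TPM values of a library share one total, this range bears on every TPM given below.

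The SD of log2(TPM + 1) of the 100 transcripts ran from 0.35 to 0.53, with a median of 0.49. Over the 1865 transcripts that met the level rule it ran from 0.35 to 4.46, with a median of 1.15. The ratio of the highest to the lowest library was 2.85 to 7.52 for the 100, with a median of 4.12, and had a median of 21.0 over the 1865. Even the most stable transcripts of these follicle cells thus differed by at least 2.85-fold somewhere among the 35 libraries. In bulk RNA of this kind, fewer cells of a type and less RNA per cell cannot be told apart.

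**Figure D1:**
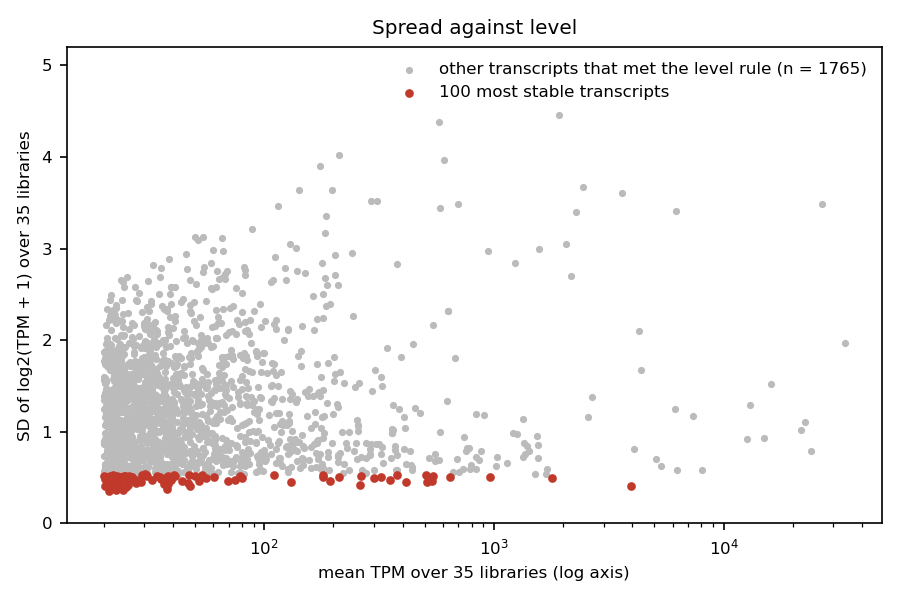
SD of log2(TPM + 1) over the 35 libraries (vertical axis) against mean TPM (horizontal log axis) for the 100 transcripts (red) and the other transcripts that met the level rule (grey). The 100 lie at SDs of 0.35 to 0.53 and at mean levels from 20.1 to 3932 TPM.

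Most of the 100 were moderately abundant. Their mean level was 20.1 to 3932 TPM with a median of 31.7 TPM, against a median of 35.8 TPM over the 1865. The mean was under 40 TPM for 64 of them, compared with 56.2% of the 1865 and over 100 TPM for 21. Together they made up 1.53% ± 0.392 (SD, n = 35) of all TPM, from 0.865% to 2.32%. This share was 1.76% ± 0.467 (SD, n = 11) in cumulus cells, 1.36% ± 0.290 (SD, n = 12) in granulosa cells and 1.48% ± 0.325 (SD, n = 12) in oocytes, and the libraries of the 3 cell types overlapped. The transcripts were 309 to 8400 bases long, with a median of 2291.5 bases, against a median of 1920 bases over the 1865.

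The lowest estimated count of any of the 100 in any library was 122.4, and the part of the SD that counting of independent reads would give had a median of 0.03 and a highest value of 0.08 on the log2 scale. The estimated counts of 13 of the 100 were whole numbers in every library, within 1e-06, as were those of 15.6% of the 1865. For the others, reads that fit several transcripts had been divided among them, and a level can reflect that division.

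ENSMMUT00000069645.2 had the smallest spread of all, an SD of 0.35 at a mean of 21.0 TPM. Its level was 15.3 TPM in the lowest, 21.2 in the median and 32.0 in the highest library of cumulus cells. In granulosa cells these values were 12.6, 17.7 and 23.3 TPM, and in oocytes 11.7, 21.7 and 39.3 TPM. The 3 cell types overlapped, and both the lowest and the highest library were oocyte libraries: library 2 of medium follicles and library 2 of large follicles.

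The second transcript, ENSMMUT00000044504.3, had an SD of 0.36 at a mean of 24.3 TPM. Cumulus cells ran from 20.9 to 36.1 TPM (median 29.8), granulosa cells from 12.3 to 30.9 TPM (median 22.5) and oocytes from 9.80 to 31.1 TPM (median 22.9). Cumulus cells were the highest of the 3 by their median, and all 3 ranges overlapped. For the third, ENSMMUT00000024613.4 (SD 0.37, mean 22.7 TPM), oocytes were the highest by their median: 26.5 TPM with a range of 12.1 to 36.1, beside 20.02 TPM (15.6 to 31.5) in cumulus cells and 21.8 TPM (13.2 to 25.5) in granulosa cells. So even these 3 did not put the cell types in the same order.

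The edge of the choice was not marked by a gap. The last transcript inside, ENSMMUT00000032100.4, had an SD of 0.5339 and a level of 10.4 to 53.8 TPM, and the first outside, ENSMMUT00000011959.4, had an SD of 0.5344 and a level of 43.7 to 145 TPM.

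The most abundant of the 100 was ENSMMUT00000015049.3, a transcript of 393 bases with a mean of 3932 TPM, the 24th highest mean of all 49537 transcripts. In cumulus cells it was at 1891 TPM in the lowest, 4933 in the median and 6495 in the highest library. In granulosa cells it was at 2795, 3541 and 5055 TPM, and in oocytes at 2475, 3594 and 7194 TPM. The cell types overlapped, and the highest value was again library 2 of oocytes from large follicles. The 4 libraries of cumulus cells from large follicles lay close together at 5621, 5742, 4933 and 5356 TPM, while the 4 from medium follicles were spread over 1891, 4453, 6495 and 3580 TPM.

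ENSMMUT00000023729.4, of 378 bases, followed with a mean of 1791 TPM and an SD of 0.49. Its median was 2013 TPM in cumulus cells (788 to 2774), 1404 TPM in granulosa cells (1022 to 2769) and 1872 TPM in oocytes (1162 to 3416). For both of these short transcripts, the lowest library was cumulus medium 1 and the highest oocyte large 2. At the other end of the scale, ENSMMUT00000042800.3 had the lowest mean, 20.1 TPM. Its median was 20.1 TPM in cumulus cells (14.3 to 26.9), 16.2 TPM in granulosa cells (8.59 to 20.9) and 24.7 TPM in oocytes (7.27 to 46.2), so that the oocyte libraries enclosed the ranges of both somatic cell types.

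The longest of the 100, ENSMMUT00000061445.2 (8400 bases, mean 25.4 TPM), had medians of 27.1 TPM in cumulus cells (17.6 to 40.8), 20.7 TPM in granulosa cells (12.3 to 32.7) and 28.6 TPM in oocytes (10.4 to 34.8). The shortest was ENSMMUT00000025845.4 (309 bases, mean 181 TPM).

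How the variance divides shows what was chosen. For the 100, the 3 cell types accounted for a median of 24.2% of the variance of log2(TPM + 1) over the libraries, follicle size within a cell type for 9.60%, and differences between libraries of the same group for 65.9%. Over the 1865 transcripts these medians were 72.0%, 3.15% and 24.1%. Cell type made up at least 50% of the variance of 8 of the 100, against 73.2% of the 1865. The 100 thus differed from the 1865 more in the part due to cell type than in the spread between libraries of one group. The SD between libraries of one group had a median of 0.44 for the 100 and 0.58 over the 1865.

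Within a single cell type the 100 were less exceptional. The median SD was 0.39 among cumulus libraries, 0.42 among granulosa libraries and 0.40 among oocyte libraries, beside 0.49, 0.60 and 0.52 over the 1865. Only 13 of the 100 were among the 100 most stable of the 1865 in cumulus cells alone, 19 in granulosa cells alone and 19 in oocytes alone, and 0 were so in all 3. ENSMMUT00000069645.2 ranked 90 in cumulus cells and 10 in granulosa cells but 582 in oocytes.

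A large part of the remaining spread was shared by the whole set, library by library. For each library, the deviation of each transcript from its own mean was taken, and the median over the 100 was formed. These medians ran from -0.81 to 0.59 on the log2 scale. The lowest were granulosa small 3 (-0.81), granulosa large 3 (-0.77), oocyte medium 2 (-0.73) and cumulus medium 1 (-0.52), and the highest was cumulus large 2 (0.59). The 4 lowest of these libraries held the lowest value of 78 of the 100: granulosa small 3 of 26, oocyte medium 2 of 24, granulosa large 3 of 17 and cumulus medium 1 of 11. The highest value was in cumulus large 2 for 25 and in oocyte large 2 for 24.

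Taking out the library median removed 42.7% of the summed variance of the 100. Their median SD, here of log2 TPM with no pseudocount, went from 0.51 to 0.36. The same step removed 25% over the 1865, on log2(TPM + 1).

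**Figure D2:**
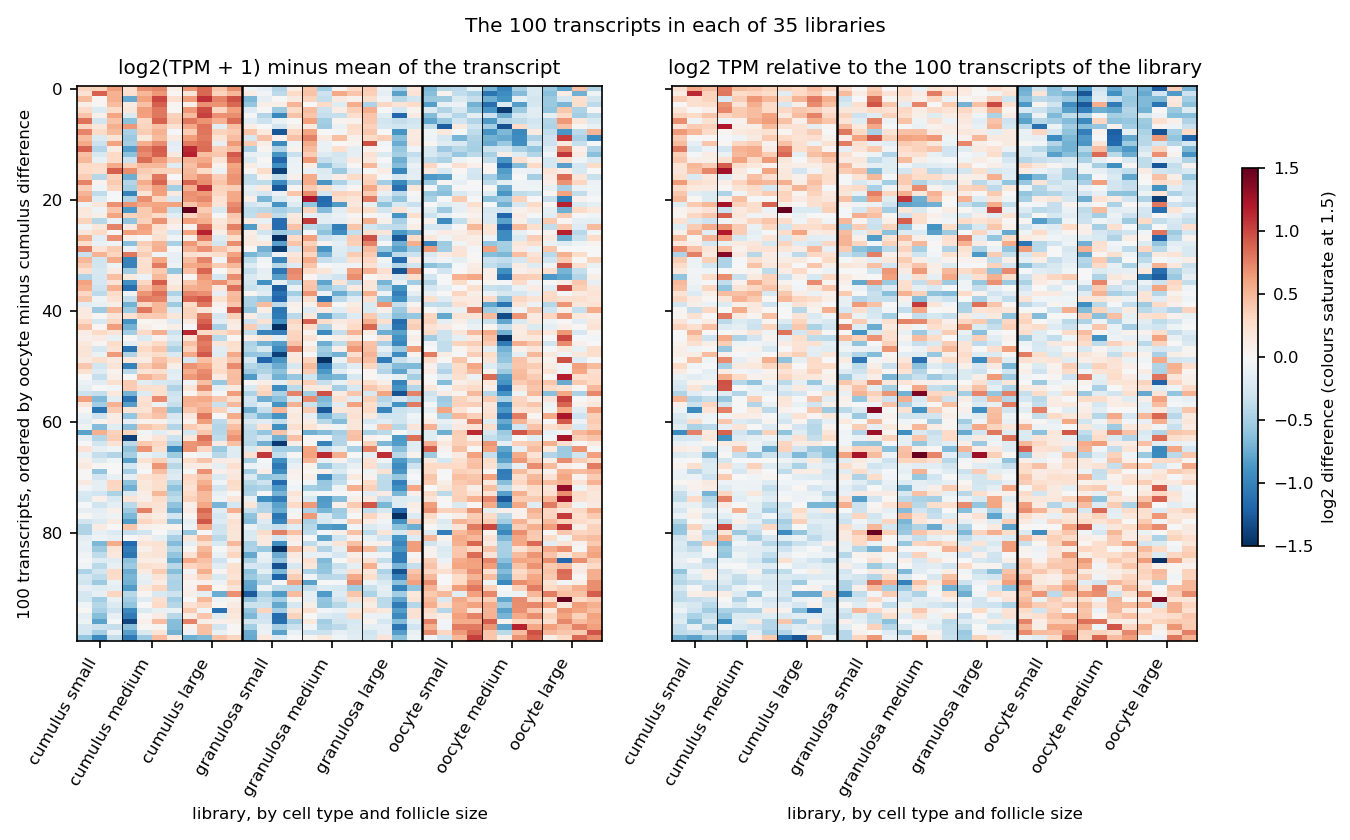
Each of the 100 transcripts (rows, ordered by the oocyte minus cumulus difference) in each of 35 libraries (columns, in 9 groups), as log2(TPM + 1) minus the mean of the transcript (left) and as log2 TPM relative to the 100 transcripts of the same library (right), with colours saturating at a difference of 1.5. In the left panel whole columns are blue, such as granulosa small 3 and oocyte medium 2. In the right panel the columns even out because the library median was subtracted. The gradient between cumulus cells and oocytes follows from the order of the rows.

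In oocytes this shared shift moved with the 4 abundant transcripts. When TPM was rescaled to a total without those 4, the SD of the library medians among oocytes went from 0.29 to 0.10, the median of oocyte medium 2 from -0.73 to 0.02 and that of oocyte large 2 from 0.39 to -0.17. These 2 libraries were the ones in which the 4 transcripts held the largest and the smallest share of TPM, 68.9% and 20.4%. Over all 35 libraries, the range of the medians went from 1.39 to 1.06, and the lowest granulosa libraries stayed low: the rescaled values of granulosa cells ran from -0.63 to 0.20.

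**Figure D3:**
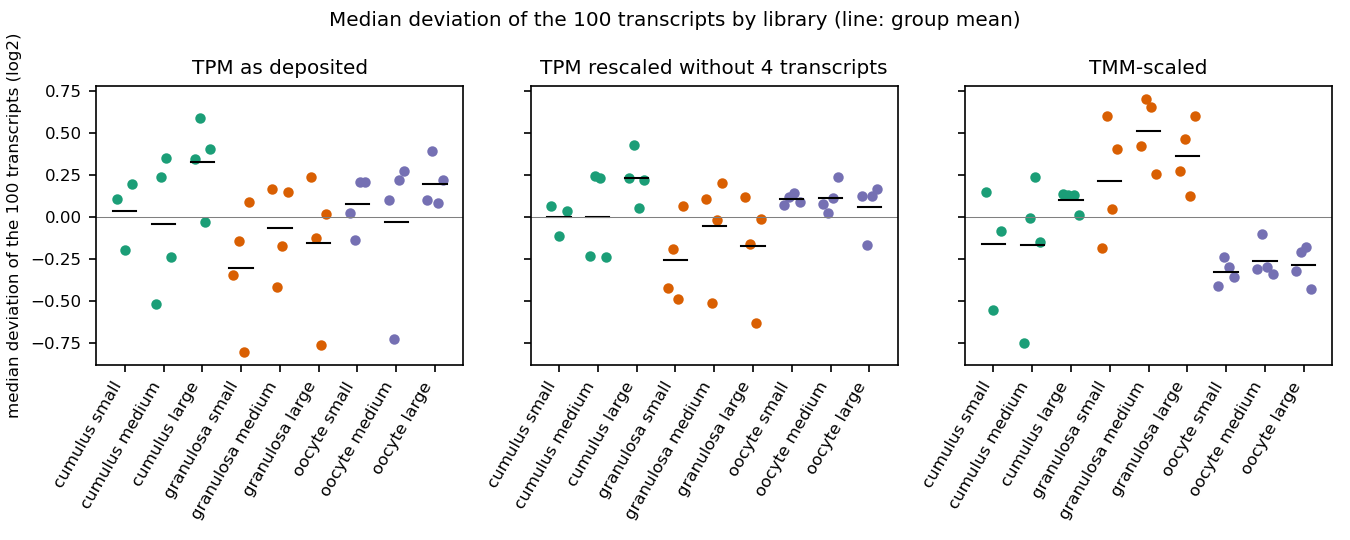
Median deviation of the 100 transcripts in each library (log2, vertical axis) by group, with a line at each group mean, from TPM as deposited (left), TPM rescaled without the 4 abundant transcripts (middle) and TMM-scaled CPM per kilobase (right). Oocyte medium 2 lies at -0.73 in the left panel and at 0.02 in the middle one, and granulosa libraries lie above the oocyte libraries on average only in the right panel.

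The differences between cell types that remain in these transcripts depend on how libraries are scaled, so each is given on more than one scale. TPM divides by the library total. TMM (trimmed mean of M-values, the scaling used in edgeR) sets libraries level by the bulk of transcripts. Its values are called CPM (counts scaled to the library total) per kilobase here, with factors from all 35 libraries. They are counts over effective transcript length and TMM-scaled library total. A factor common to all libraries then brings their mean total to that of TPM. Going from TPM to TMM moved the median difference of the 1865 transcripts by -0.20 for oocytes against cumulus cells, by -0.92 for oocytes against granulosa cells and by -0.67 for cumulus against granulosa cells. The median of the 100 moved by -0.19, -0.92 and -0.73.

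In TPM, the means of the 3 cell types lay within a range of 0.02 to 0.96 (log2) for each of the 100, with a median range of 0.52. The range was under 0.5 for 46 transcripts and over 1 for 0. Cumulus cells had the highest mean for 51, oocytes for 45 and granulosa cells for 4, and granulosa cells had the lowest mean for 64, oocytes for 27 and cumulus cells for 9. In TMM-scaled values this order did not hold: oocytes were below granulosa cells for all 100 and cumulus cells below granulosa cells for 96.

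Between oocytes and cumulus cells, the 100 were split almost evenly in TPM, with 48 higher in oocytes and 52 lower. The median difference was -0.06 (-0.96 to 0.78), and it was -0.26 with TMM, beside 1.04 in TPM and 0.85 with TMM for the 1865. For 0 of the 100 did the 2 sets of libraries not overlap in TPM (2 with TMM, both lower in oocytes), whereas 47.8% of the 1865 did not overlap in TPM and 53.1% with TMM. In edgeR's quasi-likelihood test on the counts of all transcripts, 4 of the 100 were higher in oocytes and 43 lower at an adjusted p under 0.05. Of all 36437 transcripts tested, 68.0% were called, 33.6% higher and 34.4% lower, and of the 1865, 85.8%. The median log2 difference in that test was -0.28 for the 100 and -0.08 for all transcripts tested. Since the 100 were chosen on these libraries, the counts of calls describe the choice and nothing is read from them, here and in the other comparisons.

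ENSMMUT00000009753.4 was the transcript lowest in oocytes relative to cumulus cells. It was at 20.4 TPM in the lowest, 29.97 in the median and 35.4 in the highest cumulus library, and at 9.01, 13.4 and 26.2 TPM in oocytes. Only the upper end of the oocyte libraries reached the cumulus range, and granulosa cells lay between (13.1, 18.9 and 25.7 TPM). The difference was -0.96 in TPM and -1.12 with TMM, and in the edgeR test -1.18 (SE 0.16, adjusted p = 3.56e-06). ENSMMUT00000021141.4, whose counts were whole in every library, was next: 23.5 to 43.2 TPM in cumulus cells (median 32.8) and 10.3 to 24.9 TPM in oocytes (median 15.4). It differed by -0.92 in TPM and by -1.14 in the edgeR test (SE 0.17, adjusted p = 6.54e-06).

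In the other direction, ENSMMUT00000095086.1 was at 12.7 to 38.4 TPM in cumulus cells (median 18.6) and at 22.2 to 57.2 TPM in oocytes (median 38.0). These ranges overlapped widely. Its difference of 0.78 in TPM was the largest toward oocytes among the 100, and in the edgeR test the value was 0.51 (SE 0.24, adjusted p = 0.0653), short of the threshold. ENSMMUT00000065807.2 was less spread, at 10.8 to 27.3 TPM in cumulus cells (median 18.4) and 14.7 to 39.4 TPM in oocytes (median 27.9), and the lowest oocyte value was medium 2. It was higher in oocytes by 0.72 in TPM, 0.52 with TMM and 0.51 in the edgeR test (SE 0.13, adjusted p = 0.00196).

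Between oocytes and granulosa cells the direction turned with the scaling. In TPM, 70 of the 100 were higher in oocytes and 30 lower, with a median of 0.31 (-0.61 to 0.87), and with TMM all 100 were lower, with a median of -0.61. The medians of the 1865 were 1.54 in TPM and 0.62 with TMM. The 2 sets of libraries did not overlap for 1 of the 100 in TPM (higher in oocytes) and for 4 with TMM (lower in oocytes), against 44.8% and 45.3% of the 1865. In the edgeR test, 94 of the 100 were lower in oocytes and 0 higher, while 64 of those 94 were higher in oocytes in TPM. Of all 34410 transcripts tested, 65.2% were called, 34.6% lower and 30.6% higher, and of the 1865, 82.3%. The median log2 difference was -0.84 for the 100 and -0.23 for all transcripts tested, and TMM factors of that test came from these 24 libraries alone.

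The transcript whose libraries did not overlap in TPM was ENSMMUT00000029107.4. It was at 12.5, 20.1 and 24.9 TPM in the lowest, median and highest granulosa library and at 25.7, 36.2 and 46.2 TPM in oocytes. The gap between the sets was under 1 TPM, and cumulus cells spanned both (14.2, 26.8 and 40.6 TPM). In TPM it was 0.87 higher in oocytes, with TMM the difference was -0.04, and in the edgeR test -0.27 (SE 0.18, adjusted p = 0.189). ENSMMUT00000074295.2 was similar, at 23.1 to 48.7 TPM in granulosa cells (median 40.2) and 28.3 to 112.5 TPM in oocytes (median 77.3). Its difference was 0.86 in TPM and -0.26 in the edgeR test (SE 0.14, adjusted p = 0.112), so neither of these 2 passed the test in either direction.

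ENSMMUT00000075913.2 was lower in oocytes on each scale used. It was at 20.4, 37.8 and 54.7 TPM in granulosa cells and at 16.4, 22.8 and 66.8 TPM in oocytes. The highest oocyte value, in large 2, lay above all granulosa libraries. The difference was -0.61 in TPM, -1.52 with TMM and -1.69 in the edgeR test (SE 0.23, adjusted p = 2.81e-06). The shortest transcript, ENSMMUT00000025845.4, with whole counts in every library, was at 114 to 249.7 TPM in granulosa cells (median 189.6) and 77.0 to 205 TPM in oocytes (median 123), and cumulus cells were higher still (174 to 318 TPM, median 231). It differed between oocytes and granulosa cells by -0.55 in TPM and -1.63 in the edgeR test (SE 0.27, adjusted p = 2.77e-05).

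Between cumulus and granulosa cells the direction turned as well. In TPM, 90 of the 100 were higher in cumulus cells and 10 lower, with a median of 0.29 (-0.58 to 0.89), and with TMM 4 were higher and 96 lower, with a median of -0.44. For the 1865 the medians were 0.51 and -0.16. The 2 sets of libraries overlapped for all 100 on both scales (0 not overlapping), and did not overlap for 1.93% of the 1865 in TPM and 0.107% with TMM. In the edgeR test 37 of the 100 were lower in cumulus cells and 0 higher, while 27 of those 37 were higher in cumulus cells in TPM. Of all 34521 transcripts tested, 19.1% were called, 9.63% lower and 9.45% higher, and of the 1865, 24.6%. The median log2 difference was -0.42 for the 100 and 0.04 for all transcripts tested. Without the 6 somatic libraries with more than 0.1% of counts in the oocyte-predominant set (cumulus small 1, cumulus small 2, cumulus medium 2, cumulus large 3, granulosa medium 4 and granulosa large 1), edgeR called 0 of the 100 and 40 of all transcripts, while the median log2 difference of the 100 was -0.47, against -0.42 with all libraries, and 40 of them had an unadjusted p under 0.05. That fit has 1 library of cumulus cells from small follicles, and the part of oocyte RNA in the result was not tested.

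ENSMMUT00000079794.1 was the transcript highest in cumulus relative to granulosa cells. It was at 21.9, 35.3 and 38.4 TPM in the lowest, median and highest cumulus library and at 10.1, 18.5 and 25.9 TPM in granulosa cells. The overlap was small, and the 4 cumulus libraries of medium follicles were tight at 35.9 ± 1.24 TPM (SD, n = 4). The difference was 0.89 in TPM and 0.17 with TMM, and 0.19 in the edgeR test (SE 0.13, adjusted p = 0.319). ENSMMUT00000021829.4 was at 125 to 312 TPM in cumulus cells (median 251.0) and 86.0 to 250.7 TPM in granulosa cells (median 124). It too differed in TPM, by 0.86, and not past the threshold of the edgeR test (0.17, SE 0.17, adjusted p = 0.504).

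The reverse held for ENSMMUT00000022672.4, which was low and even in cumulus cells, at 15.0, 19.3 and 22.5 TPM, and spread in granulosa cells, at 16.4, 24.6 and 49.2 TPM. It was lower in cumulus cells on each of these scales, with differences of -0.58 in TPM, -1.30 with TMM and -1.49 in the edgeR test (SE 0.27, adjusted p = 0.00356). ENSMMUT00000046904.3 was at 24.4, 31.2 and 41.6 TPM in cumulus cells and 27.5, 40.5 and 62.7 TPM in granulosa cells. Its difference was -0.32 in TPM and -1.13 in the edgeR test (SE 0.20, adjusted p = 0.00356). Both calls come from the fit on all 23 libraries. Without the 6 libraries named above, 0 of the 100 were called, at a median difference of -0.47 against -0.42 with all libraries.

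**Figure D4:**
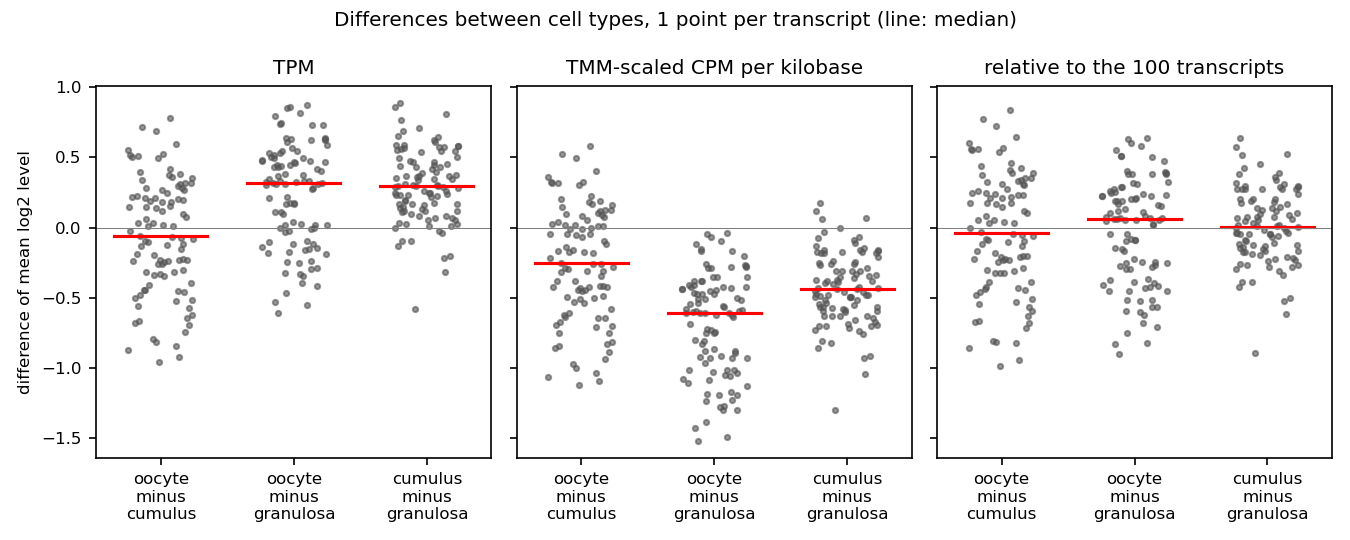
Difference of mean log2 level between cell types for each of the 100 transcripts (points; red line, median) in TPM (left), in TMM-scaled CPM per kilobase (middle) and relative to the 100 transcripts of the same library (right). The medians of oocytes minus granulosa cells are 0.31, -0.61 and 0.06 in the 3 panels, and those of cumulus minus granulosa cells are 0.29, -0.44 and 0.01.

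**Figure D5:**
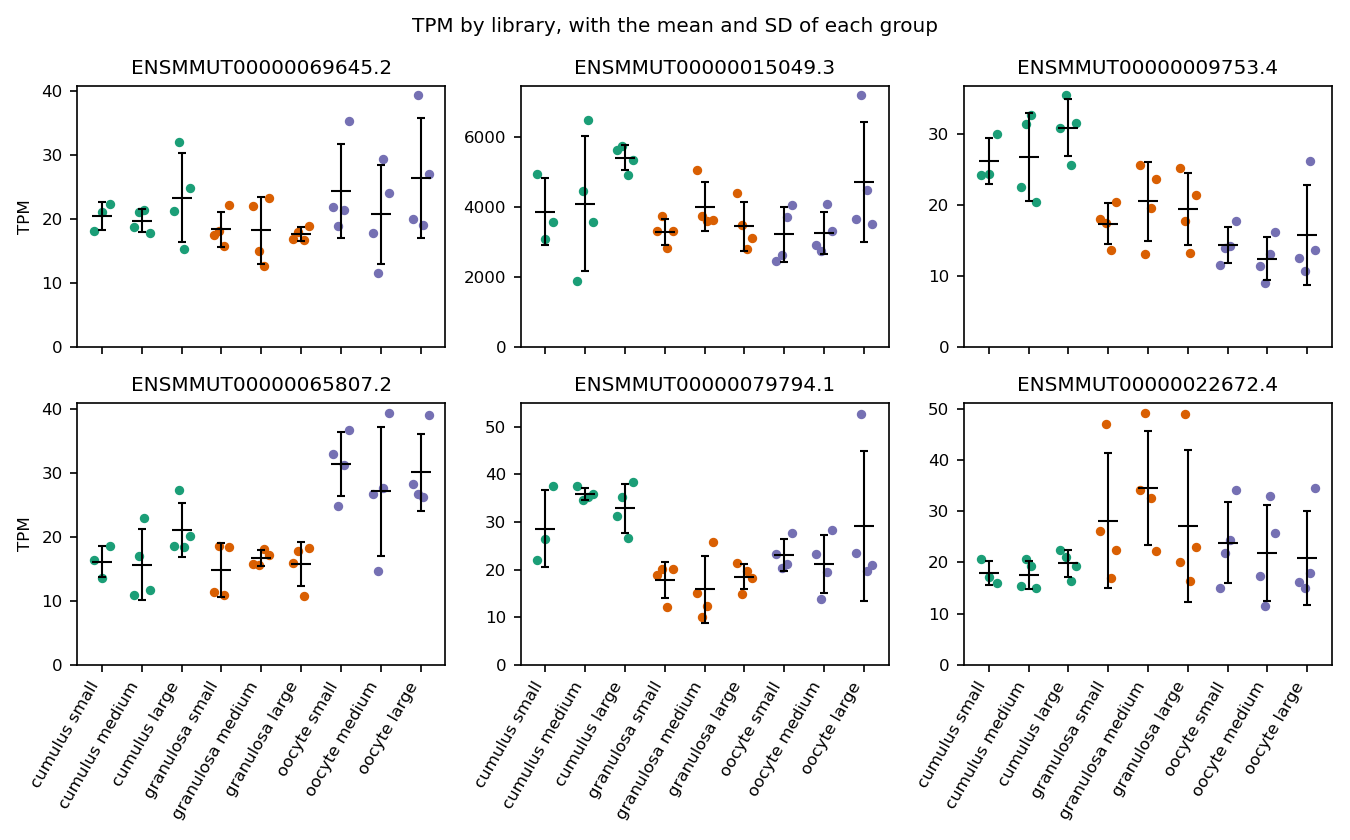
TPM of 6 of the transcripts in each library (points) by cell type and follicle size, with the mean and SD of each group (n = 3 for cumulus small, n = 4 for the other groups). ENSMMUT00000069645.2 overlaps in all groups, and ENSMMUT00000009753.4 shows cumulus libraries at 20.4 to 35.4 TPM above most oocyte libraries.

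Expressed relative to the 100 themselves, by taking out the library median, differences between transcripts no longer depend on the scaling of libraries. The median differences between cell types were then -0.04 for oocytes against cumulus cells, 0.06 for oocytes against granulosa cells and 0.01 for cumulus against granulosa cells, values that the subtraction brings near 0. Some of the 100 differed by more than 0.5 (log2), and 0 differed by more than 1. Those over 0.5 were 26 between oocytes and cumulus cells, 22 between oocytes and granulosa cells and 8 between cumulus and granulosa cells. Of the 1865, 1603, 1597 and 800 differed by more than 0.5 in these comparisons. The libraries did not overlap for 4, 2 and 0 of the 100, against 58.9%, 51.4% and 0.804% of the 1865 on the same scale. Cell type made up at least 50% of this variance for 17 of the 100, with a median of 25.1%.

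On this relative scale 3 transcripts were higher in every oocyte library than in every cumulus library: ENSMMUT00000065807.2, ENSMMUT00000074295.2 and ENSMMUT00000014758.4, by 0.77, 0.73 and 0.60 on average. ENSMMUT00000018339.4 was lower in every oocyte library, with a mean difference of -0.80. The last 2 were named after their values were seen. ENSMMUT00000009753.4 was the lowest in oocytes relative to cumulus cells, with a difference of -0.98, and its libraries overlapped. ENSMMUT00000069645.2 differed by 0.15, 0.08 and -0.06 in the 3 comparisons. The 2 most spread on this scale, with SDs of 0.60 and 0.59, were ENSMMUT00000025845.4 and ENSMMUT00000022672.4. The least spread relative to the others was that of ENSMMUT00000076161.2, chosen after its values were seen, with an SD of 0.19. Cell type made up 73.2% of its variance on this scale. Every oocyte library lay above every granulosa library, with a mean difference of 0.38.

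Between follicle sizes, most of the 100 differed in the same direction in several comparisons. In cumulus cells, 95 of the 100 had a higher mean log2(TPM + 1) in large than in medium follicles, beside 1637 of the 1865. For large against small follicles, 94 of the 100 were higher in large, beside 1392 of the 1865. The median differences were 0.36 and 0.33, and -0.05 for medium against small. Leaving out 1 library at a time, the first of these ran from 0.20 without cumulus medium 1 to 0.51 without cumulus medium 3, and the second from 0.21 without cumulus small 2 to 0.43 without cumulus large 3. The last ran from -0.17 without cumulus medium 3 to 0.10 without cumulus medium 1, so its sign was not stable. Large follicles had the highest mean TPM of the 3 sizes for 92 of the 100. With TMM the medians were 0.26, 0.30 and 0.02, and over the 1865 in TPM 0.37, 0.21 and -0.16.

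The libraries of large and small follicles did not overlap for 11 of the 100 in TPM, all higher in large follicles, against 9.97% of the 1865, and for 5 with TMM, against 6.01%. Large and medium did not overlap for 1 (background 1.61%), and medium and small for 0 (background 2.73%). The shift by size was also that of the set as a whole: the median deviation of the 100 was 0.33 ± 0.26 (SD, n = 4) in cumulus libraries of large follicles, -0.04 ± 0.41 (SD, n = 4) in medium and 0.03 ± 0.21 (SD, n = 3) in small.

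In granulosa cells, medium follicles had the highest mean TPM for 65 of the 100 and small follicles the lowest for 80. The median difference was 0.25 (0.26 over the 1865) between medium and small, -0.09 (-0.02) between large and medium and 0.13 (0.23) between large and small follicles. With TMM the medians of the 100 were 0.31, -0.15 and 0.13. The libraries did not overlap for 0, 0 and 1 of the 100, against 0.965%, 0% and 0.161% of the 1865. Leaving out 1 library at a time in TPM, the first of these medians ran from 0.09 without granulosa small 3 to 0.37 without granulosa small 4. The second ran from -0.23 without granulosa large 1 to 0.08 without granulosa large 3, and the last from -0.03 without granulosa small 3 to 0.31 without granulosa large 3.

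In oocytes, the order of sizes depended on the scaling. In TPM, large follicles had the highest mean for 72 of the 100 and medium follicles the lowest for 66. The median was -0.11 (-0.11 over the 1865) between medium and small, 0.27 (0.25) between large and medium and 0.11 (0.12) between large and small follicles. After rescaling without the 4 abundant transcripts these medians were 0.01, -0.01 and -0.06, and with TMM 0.06, 0.01 and 0.03. Leaving out 1 library at a time in TPM, they ran from -0.23 without oocyte small 2 to 0.08 without oocyte medium 2, from 0.02 without oocyte medium 2 to 0.35 without oocyte medium 4, and from 0.03 without oocyte small 2 to 0.18 without oocyte small 4. The libraries did not overlap for 0, 1 and 0 of the 100 in TPM, against 0.214%, 0.912% and 0.214% of the 1865.

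None of these differences by size passed the test. In the 9 comparisons of sizes, edgeR called 0 of the 100 in each, and 0 or 1 of all transcripts tested (0% or 0.00348%). At an unadjusted p under 0.05, edgeR gave 1 of the 100 for cumulus large against small, 1 for oocyte large against medium, 2 for oocyte large against small and 0 in the other 6, beside 1.09% to 3.72% of all transcripts tested. DESeq2 also called 0 of the 100 in each. For granulosa medium against small and large against small, library numbers paired the samples by a cut on correlation, given with the processing. There, an edgeR fit with the number as a block called 0 of the 100 too. In that fit, 6 and 2 of the 100 had an unadjusted p under 0.05. This was beside 4.67% and 3.83% of all transcripts tested, and 12.1% and 6.33% of the transcripts that met the level rule. The same block gave 5 of the 100 for oocyte large against medium and 4 for oocyte large against small. It gave 1 for cumulus large against small and 0 in the remaining size comparisons. In these 3, the shares of all transcripts tested were 2.47%, 2.03% and 3.55%. Those of the transcripts that met the level rule were 2.14%, 2.20% and 3.54%. Since the 100 were chosen for a small spread over these same libraries, nothing is read from these counts.

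The transcript with the largest difference by size in cumulus cells was ENSMMUT00000025515.4, of 552 bases. Its level was 392.5, 331 and 469 TPM in small follicles, 193, 459, 536 and 278 TPM in medium and 1448, 458, 296 and 599 TPM in large. The sizes overlapped, and library 1 of large follicles was far above the rest, which gave this transcript the widest ratio of the 100 between its highest and lowest library, 7.52. The difference of large against medium was 0.79 in TPM and 0.82 in the edgeR test (SE 0.48, adjusted p = 0.99998).

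In granulosa cells it was ENSMMUT00000028740.4, of 762 bases and with whole counts. It was at 27.7, 25.8, 13.1 and 53.7 TPM in small follicles and at 43.7, 27.8, 34.5 and 61.3 TPM in medium. The sizes overlapped, and the difference was 0.56 in TPM and 0.53 in the edgeR test (SE 0.36, adjusted p = 0.9998). In oocytes it was ENSMMUT00000013943.4, of 639 bases and also with whole counts, at 57.2, 52.6, 74.0 and 66.1 TPM in medium follicles and 70.4, 174, 94.4 and 99.0 TPM in large. Large 2 was the highest of all oocyte libraries. The difference was 0.73 in TPM and 0.49 in the edgeR test (SE 0.31, adjusted p = 0.99997).

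Which transcripts were the most stable depended on the scale and on the pool they were chosen from. Among the same 1865 transcripts, 84 of the 100 were chosen again with TPM rescaled without the 4 abundant transcripts and 35 with TMM-scaled values. Where the level rule was applied anew on each scale, 3596 and 1546 transcripts met it, and 49 and 31 were chosen again. With a mean of at least 10 TPM in place of 20, 3868 transcripts met the rule and 39 were chosen again. At 50 TPM only 30 of the 100 have the level required, and all 30 were chosen. The SD of TMM-scaled values had a median of 0.49 for the 100, and of 0.40 for the 100 that would be chosen on that scale. Leaving out any 1 library kept 88 to 99 of the 100, and 75 were chosen whichever library was left out. The fewest were kept without granulosa small 3, and the next fewest, 89, without oocyte large 2.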

How the data were processed

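Per the labels' protocols, total RNA came from a PicoPure extraction, followed by the Ovation RNA-Seq System v2, a kit that amplifies small RNA yields. The submitters' processing notes name bcl2fastq 2.19.1 and, for quantification, kallisto 0.44.0. Genome build and annotation were not given in the sources used here. The deposited estimated counts per transcript were made by the authors and need not be whole, per the file headers. The deposited TPM values come from these counts and the effective lengths, per the file headers, and for 49243 of 49537 transcripts the deposited effective length was the length minus 199 bases.

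Levels, spread and differences were computed from TPM on the log2(TPM + 1) scale with Python 3.11.15 (pandas 2.3.3, numpy 2.4.6). A cell type's mean is the mean of its 3 size means. Variance was divided among cell type, size within cell type and libraries of one group. Tests used edgeR 4.0.16 (quasi-likelihood, robust) in R 4.3.3 on rounded estimated counts of all transcripts, with TMM factors, edgeR's default filter at a count of 10 and p-values adjusted over all transcripts tested by Benjamini-Hochberg, called at 0.05. Each fit held only the libraries of the cell types compared, so its TMM factors differ from those over all 35 libraries. The test was tried on simulated counts drawn independently for each library. Such counts do not cover amplification, the division of reads or shared animals, and no result here rests on them. Alternatives were RLE factors, no filter, DESeq2 1.42.0, limma 3.58.1 (voom), library number as a replicate block, each library left out, and other rules of choice.

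The named transcripts are the 3 of lowest SD, the 2 of highest and 1 of lowest mean TPM, those at the edge of the choice, the 2 largest differences in each direction between cell types, the largest by size in each cell type, and the longest and shortest. The transcripts, lists and tests were chosen with earlier results of these data known. Gene lists and cell type markers could not be applied, since the IDs carry no gene names. Library numbers paired the samples, by correlations of their deviations from the group means over 0.1 in every pair, only for granulosa medium against small (0.163 to 0.381) and large against small (0.153 to 0.320). Granulosa large against medium (0.0962 to 0.299) fell short of this cut. Oocyte medium against small (0.0953 to 0.229) and large against small (0.0515 to 0.116) did too. In these 2 oocyte comparisons the library of the same number still correlated best in every pair.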

Additional observations from a re-analysis of the deposited data

Results flagged for a closer look

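Library 2 of oocytes from medium follicles stood apart from the other libraries of its group in the median deviation of the 100 transcripts, at -0.725 on the log2 scale of TPM, with the other 3 libraries between 0.10 and 0.27. Its gap to the nearest library divided by the range of the group was 0.830, just above the critical value of 0.829 for 4 libraries. It was the only one marked in 24 such tests, made on several measures of the groups of 4 libraries, which are not independent, and chance alone marks about 1 in 20 tests. In this library the 4 abundant transcripts left out by the rule held 68.9% of TPM, and its value was 0.02 after rescaling without them.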

How the results depend on the processing

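The medians turned negative with TMM and RLE scaling for oocytes against granulosa cells (-0.61 and -0.63) and for cumulus against granulosa cells (-0.44 and -0.51). Without one library at a time, the medians lay between -0.09 and 0.03 for oocytes against cumulus cells, 0.25 and 0.39 for oocytes against granulosa cells, and 0.23 and 0.34 for cumulus against granulosa cells. In the same order, edgeR called 24154 to 25002, 22222 to 22950 and 4259 to 8305 of all transcripts without one library. With only transcripts of whole counts it called 83.3%, 81.2% and 20.4% of those tested. Transcripts of the 100 called were 39 to 52, 92 to 96 and 27 to 55 without one library. They were 13, 13 and 1 with whole counts, which leaves 13 of the 100. For cumulus against granulosa cells they were 68 with DESeq2 (27.7% of all transcripts, 37.4% of the 1865), 4 with size and library number together as a replicate block (3.09% and 4.29%), and 0 (0.107% of all) without the 6 libraries over 0.1% of oocyte-predominant counts, an alternative chosen after seeing the data, with a median of -0.47 against -0.42 in the main test. Calls over all transcripts of that comparison were 6585 in the main test, 1066 with that block, 584 with whole counts and 40 without the 6 libraries. With whole counts they were 2697 of 3239 tested for oocytes against cumulus cells and 2502 of 3080 for oocytes against granulosa cells. For the 9 size comparisons DESeq2 called 26 to 203 of all transcripts, where edgeR called 0 or 1. The transcripts whose libraries did not overlap, with the share of the 1865 in brackets, were 1 rescaled (56.1%), 2 with TMM (53.1%), 1 with RLE (55.8%), 1 without 4 libraries over 0.2% (48.6%), 1 without 6 (49.0%) and 0 to 2 without one library (47.8% to 55.7%) for oocytes against cumulus cells. For oocytes against granulosa cells they were 2 rescaled (51.4%), 4 with TMM (45.3%), 11 with RLE (46.2%) and 1 to 3 without one library (44.8% to 52.3%). For cumulus against granulosa cells they were 1 without 4 (3.06%), 5 without 6 (4.34%) and 0 to 1 without one library (1.93% to 2.41%). Of the 100, 39 were chosen again at a mean of at least 10 TPM and 30 at 50 (all that have this level). Chosen again were 49 with rescaled TPM, 31 with TMM and 23 with RLE. Among the same 1865, added after seeing the data, 84, 35 and 31 were chosen again on these 3 scales. The median absolute deviation gave 58, and whole counts gave 13 (all that have them). The cuts at 50 TPM and at whole counts keep the order by SD, so their counts could not have differed. Without one library 88 to 99 were chosen again. The cause of these changes was not tested, except that the whole-count and left-out-library settings hold fewer transcripts or libraries. Alternatives that leave out somatic libraries do not apply to size comparisons of oocytes. Each group holds 3 or 4 libraries, and what the division of reads among transcripts adds to the spread was not tested.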
